A study of Mus musculus with 94 samples.

Results

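Tubule segments of mouse kidney were compared between day 7 after ischemia-reperfusion injury (IRI) and uninjured controls by digital spatial profiling (DSP). The segments were all those labelled PanCK in the vehicle day 7 and control groups, 12 of the 94 segments in the series and 12 of its 48 tubule segments, with 6 on each side. Each side held 4 cortical and 2 medullary segments from 2 kidney sections, told apart by the prefix of the sample labels, so that each section gave 2 segments of cortex and 1 of medulla. The injured kidneys came from male C57BL/6 mice whose left renal pedicle had been clamped without removal of the other kidney, and which received DMSO vehicle by intraperitoneal injection before the clamp and daily afterwards. The control kidneys had not been clamped. The methods allow contralateral kidneys or kidneys of healthy mice as controls, and it is not stated which each control kidney was. Neither group is labelled with a genetic change. The series also holds injured groups given vehicle (days 1 and 14) or the SYK inhibitor entospletinib (days 1, 7, and 14). Those groups entered the estimate of spread in the tests below, and some comparisons used them alone. The design text gives 2 mice per condition and time point, but no label says in words that a prefix stands for a mouse, so the p-values measure the spread between sections. Regions were chosen by eye from stained tissue with glomeruli avoided, and the tubule area within a region was the part stained for pan-cytokeratin, with or without CD10.

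As background, ischemia strips proximal tubule cells of their brush border and kills part of the epithelium, most of all in the outer medulla, where the oxygen supply is thin. Surviving cells spread, divide, and restore the tubule when repair succeeds. When it fails, they keep an injured state, secrete cytokines and matrix signals, and are surrounded by macrophages and fibroblasts. Pan-cytokeratin marks epithelial keratins and CD10 is a peptidase of the proximal brush border, whereas IBA1 marks macrophages. In DSP, a probe carries a barcode that UV light frees from the chosen area, and the freed barcodes are counted by sequencing, so a count measures the RNA that a probe binds in that area. Values are given per probe in CPM, a probe's count relative to the total count of its segment or section, after upper quartile scaling. The files identify probes by number and pair none with a gene, so the keratins, the brush border genes, and the other markers of the stain could not be looked up, and no pathway is named below.

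The control tubule segments held 2226395 to 6500412 counts and the day 7 segments 2795876 to 5931414, and all 20175 probes passed the filter on low counts. Control section 1 stood apart from the other sections of these 2 groups. Its 3 segments had a median probe level of 17.4 to 19.9 CPM before scaling, against 25.9 to 27.7 CPM in control section 2 and 21.5 to 30.8 CPM on day 7. A single probe took 4.84% to 5.74% of its counts, against 2.99% to 3.52% in control section 2 and 2.94% to 4.08% on day 7. The other 36 tubule segments of the series had median probe levels of 18.6 to 38.6 CPM, so the lowest level of control section 1 lay below all of them. The 38.6 CPM came from a shallow segment, with 77621 counts and a median count of 3. In those 36 segments the most abundant probe took 2.1% to 7.4% of the counts, but it was not always the same probe. The 7.4% was that of RTS0080792, whereas RTS0070220 was the most abundant in control section 1. Where RTS0070220 was the most abundant of the 36 segments too, its share reached 4.62%. The medullary segments of the control sections also differed most from each other. There, 99 probes were over 4-fold higher in control section 1 than in control section 2 and 40 were over 4-fold lower. The day 7 medullary segments differed over 4-fold for 4 and 8 probes. Such a difference does not tell which section of a pair is the unusual one. In the cortex, 7 probes were over 4-fold higher in control section 1 and 0 were lower, and on day 7 the numbers were 3 and 21. Counts of calls are therefore also given without control section 1.

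More tubule probes were called higher than lower on day 7. By edgeR's quasi-likelihood test on section sums, 171 of 20175 probes were higher on day 7 (0.848%) and 40 were lower (0.198%), a call being an adjusted p under 0.05 with a log2 fold change beyond 1 in size. The risen probes had ordinary levels in control tubules, with a median of 25.1 CPM over the probes and a range of 9.04 to 2010 CPM, and reached a median of 74.6 CPM on day 7. The fallen probes were abundant in control tubules, with a median of 169 CPM and a range of 50.1 to 9990 CPM, and dropped to a median of 64.5 CPM. Over all probes the median was 24.2 CPM in controls, with a first quartile of 15.0 CPM, and 24.8 CPM on day 7. Counts were not background-corrected, and a probe near the background has little room to fall. The part of this in the high control level of the fallen probes was not tested. The plot of probe levels shows the fallen probes further up the scale of control levels than most risen ones. With DESeq2 on the same sums the split was 202 higher and 117 lower. A change in RNA per cell and a change in the number of cells of a kind within a segment cannot be told apart in these data.

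**Figure D1:**
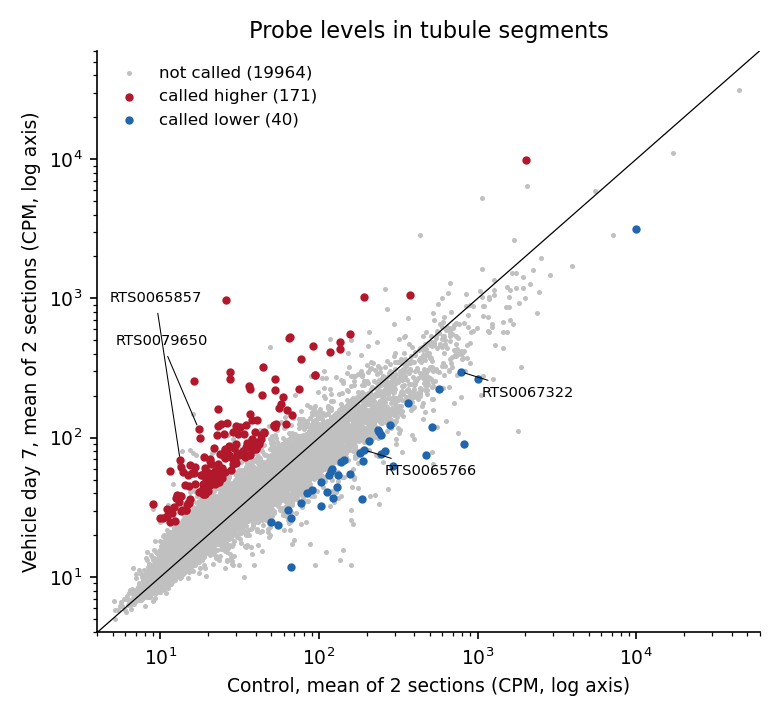
Mean level of each of 20175 probes over the 2 sections of control tubules (horizontal, CPM, log axis) and of vehicle day 7 tubules (vertical, CPM, log axis), with called probes in color, the 4 named probes labelled, and the line of equal levels. The 171 risen probes have a median control level of 25.1 CPM and the 40 fallen probes one of 169 CPM.

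Most changes were moderate. Of the risen probes, 93 had a log2 fold change between 1 and 1.5, 47 between 1.5 and 2, 25 between 2 and 3, and 6 above 3, with a median of 1.45 and a highest value of 5.24. Of the fallen probes, 26 lay between -1 and -1.5, 8 between -1.5 and -2, 5 between -2 and -3, and 1 beyond -3, with a median of -1.25 and a lowest value of -3.19. The median over all probes was -0.03. A further 99 probes that were higher and 35 that were lower had an adjusted p under 0.05 but stayed within the fold limit. The smallest called rise was 1.01, and the largest rise left out for its size alone was 1.00. A log2 fold change above 1 without an adjusted p under 0.05 was seen for 88 higher probes, and one below -1 for 225 lower probes, so that the excess of rises was one of calls and not of changes beyond the fold limit.

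How far the calls rest on single sections differed between rises and falls. Leaving out each of the 4 sections in turn, 47 of the 171 risen probes were called every time and 25 never, whereas none of the 40 fallen probes was called every time, 1 was called 3 times, and 29 were called once. Without control section 1 the count was 63, of which 60 were higher and 3 lower. Without day 7 section 1 it was 77, of which 76 were higher and 1 lower. Without day 7 section 2 it was 133, of which 127 were higher and 6 lower. Without control section 2, which leaves control section 1 as the only control, it was 367, with 178 higher and 189 lower. Without the medullary segment of control section 1 alone the count was 260, with 210 higher, 50 lower, and 190 probes shared with the calls over all segments.

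The 47 risen probes called whichever section was left out had larger changes: their log2 fold changes ran from 1.16 to 3.97, around a median of 1.87. Their median level was 23.2 CPM in controls and 83.9 CPM on day 7. In 43 of the 47 (91.5%), every day 7 segment was above every control segment, against 83.0% of all risen probes and 3.25% of all probes. The same sums chose them, so these values are a description.

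RTS0079650 was the risen probe with the smallest adjusted p. In the 4 cortical control segments its level was 13.5, 17.1, 16.2, and 16.3 CPM, and in the 2 medullary ones 17.1 and 22.8 CPM. On day 7 the cortical segments held 105, 87.3, 123, and 89.6 CPM and the medullary ones 116 and 186 CPM. The lowest day 7 segment was thus well above the highest control segment, and the medullary segment of day 7 section 2 was the highest of all. By section, the level was 17.4 ± 1.9 CPM (SD, n = 2) in controls and 116 ± 16 CPM (SD, n = 2) on day 7, a log2 fold change of 2.73 (SE 0.19; edgeR adjusted p = 7.4e-05).

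RTS0065857 had the same adjusted p and a smaller fold. Its control levels were 14.1, 10.1, 14.2, and 12.9 CPM in cortex and 12.9 and 15.7 CPM in medulla, and its day 7 levels were 57.8, 53.5, 80.8, and 55.0 CPM in cortex and 81.7 and 88.6 CPM in medulla. The groups did not overlap in either region, and both medullary day 7 segments were higher than all 4 cortical ones. The section means were 13.3 ± 1.4 CPM and 68.8 ± 4.3 CPM (SD, n = 2 each), with a log2 fold change of 2.36 (SE 0.17; edgeR adjusted p = 7.4e-05). The control mean of RTS0065857 lay below the first quartile of all probes in controls, 15.0 CPM. The background level was not known, so its part in that mean was not tested. Both risen probes were called in the cortex alone and in the medulla alone, and under all 16 alternative settings tried for the comparison. Of these settings, the run without a filter repeated the main fit, since all probes had passed the filter.

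RTS0067322 was the fallen probe with the larger fold of the pair that was named. Its control levels were 874, 821, 765, and 850 CPM in cortex and 768 and 696 CPM in medulla, against day 7 levels of 307, 241, 375, and 335 CPM in cortex and 235 and 300 CPM in medulla. The highest day 7 segment lay below the lowest control segment, and within each group the regions were close. The section means were 781 ± 19 CPM and 298 ± 49 CPM (SD, n = 2 each), with a log2 fold change of -1.39 (SE 0.23; edgeR adjusted p = 0.00877). Its log2 fold change was -1.37 without control section 1 and -1.23 without day 7 section 1, with edgeR adjusted p of 0.054 and 0.156, and the call was lost in both.

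RTS0065766 showed a similar fall at a lower level. Its control levels were 190, 229, 205, and 209 CPM in cortex and 155 and 200 CPM in medulla, and its day 7 levels were 81.7, 77.5, 90.3, and 88.4 CPM in cortex and 66.4 and 91.7 CPM in medulla. Again the groups did not overlap in either region. The section means were 192 ± 18 CPM and 81.9 ± 10 CPM (SD, n = 2 each), with a log2 fold change of -1.23 (SE 0.20; edgeR adjusted p = 0.00877). Without day 7 section 1 it was -1.11 with an edgeR adjusted p of 0.147, and the call was lost. Neither fallen probe was called in a region alone: in the cortex the edgeR adjusted p was 0.082 for RTS0067322 and 0.0524 for RTS0065766, and in the medulla 0.0516 and 0.0826.

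**Figure D2:**
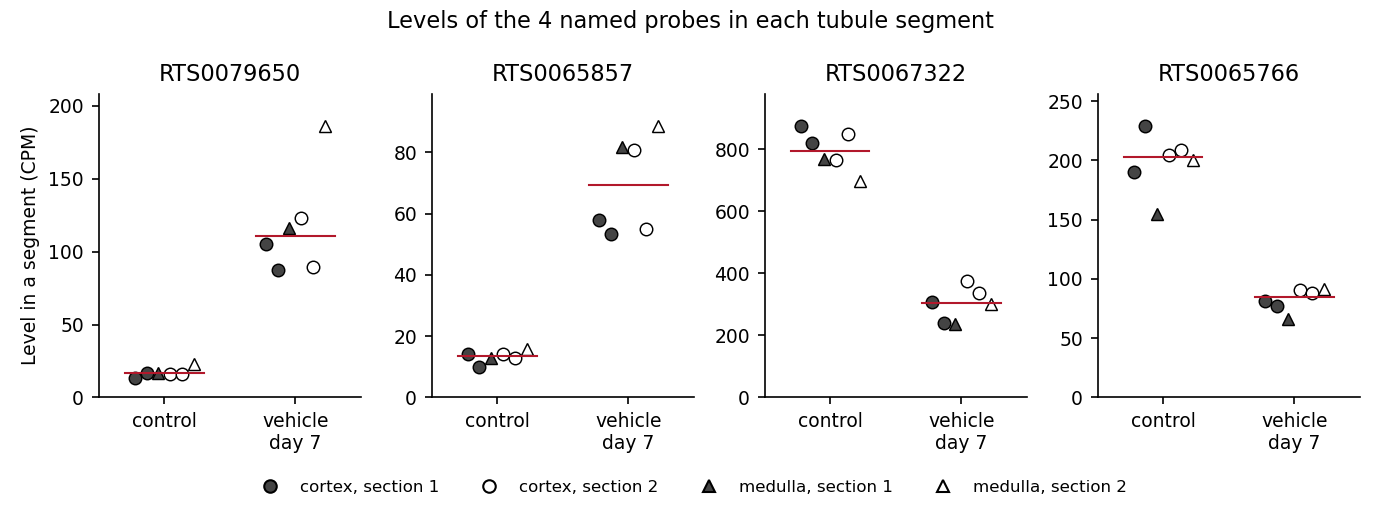
Level (CPM, axis from 0) of 2 risen and 2 fallen probes in each of the 6 control and 6 vehicle day 7 tubule segments, with circles for cortex, triangles for medulla, filled symbols for section 1, open symbols for section 2, and a line at the median of a group. In all 4 panels the groups do not overlap; RTS0079650 runs from 13.5 to 22.8 CPM in controls and from 87.3 to 186 CPM on day 7.

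The called probes separated the groups in most single segments. In 142 of the 171 risen probes all 6 day 7 segments were above all 6 controls, and in 36 of the 40 fallen probes all 6 were below. Over all probes, 3.25% lay wholly above and 3.44% wholly below. Since the calls used the same segments, this describes how evenly the changes were spread and adds no evidence for them.

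Cortex and medulla are set side by side for the called probes, whose shared direction is largely fixed by their choice on sums of both regions. All 171 risen probes had a positive log2 fold change in the cortex alone and in the medulla alone, and all 40 fallen probes a negative one in both. Of all probes, 58.3% had a positive value in the cortex and 33.1% in the medulla. The medians were larger in the medulla: the median log2 fold change of the risen probes was 1.17 in cortex and 1.79 in medulla, and that of the fallen probes was -1.11 and -1.63. The median over all probes was 0.04 in cortex and -0.16 in medulla, and the medullary shift was -0.02 with TMM scaling. The effects were also compared directly, with the section in the model. The risen probes had a median of 0.59 more change in the medulla on the log2 scale, against -0.16 over all probes. With TMM scaling the median over all probes was -0.003. Under upper quartile scaling the difference was positive for 151 of the 171 (88.3%), against 32.9% of all probes. Among the fallen probes the median difference was -0.54, and 32 of 40 (80.0%) were negative, against 67.1% of all probes. The same segments chose these probes, so the values are a description. The part of that choice in the larger medullary change was not tested.

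**Figure D3:**
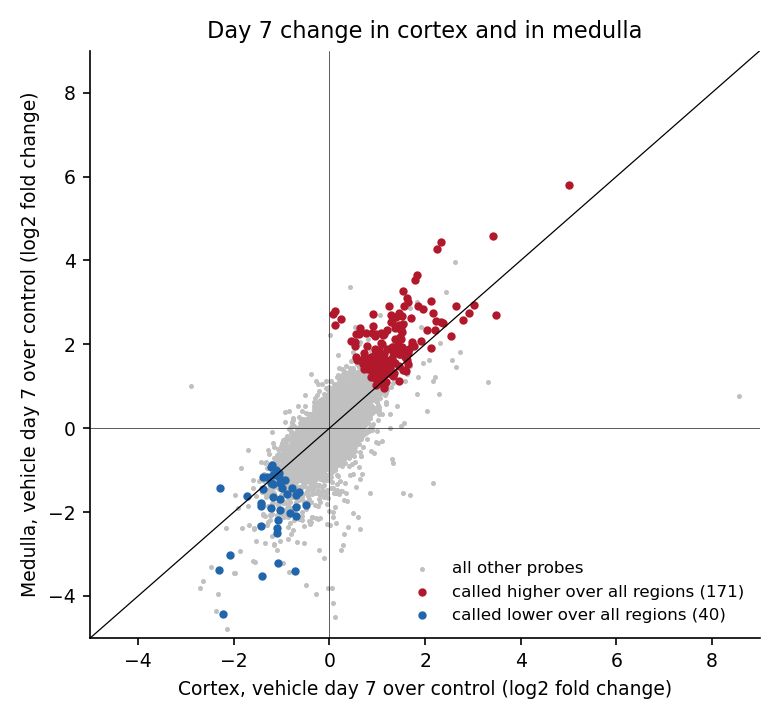
Log2 fold change of vehicle day 7 over control in the cortex (horizontal) and in the medulla (vertical) for each of 20175 probes, with the probes called over all regions in color and the line of equal change. All 171 risen probes lie above 0 on both axes and all 40 fallen probes below, and most risen probes lie above the line.

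No probe passed the test of that regional difference. By edgeR's quasi-likelihood test, 0 of 20175 probes (0%) had an adjusted p under 0.05, the smallest being 0.0502, and 2082 (10.3%) had an unadjusted p under 0.05. Of the risen probes, 59 of 171 (34.5%) had an unadjusted p under 0.05, and of the fallen ones 5 of 40 (12.5%). Both shares are a description, since the probes were chosen on the same segments. With TMM scaling 1 probe passed, without control section 2 there were 9, and without day 7 section 1 there were 5. Without control section 1 there were 0. Under upper quartile scaling with all sections, a difference between the regions was thus not detectable for single probes at this number of sections.

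Tested alone, the cortex gave few calls and the medulla many. In cortical sums 21 probes were higher (0.104%) and 0 were lower (0%), although 931 were higher and 1179 lower at an unadjusted p under 0.05 by edgeR. DESeq2 on the cortical sums called 63 higher and 109 lower, the label prefix as a block gave 83 higher and 15 lower, and without control section 2 there were 4 higher and 9 lower. TMM scaling gave 12, all higher. In medullary sums 249 probes were higher (1.23%) and 98 were lower (0.486%), and with TMM scaling 347 were higher and 58 lower. Without control section 1, the cortex gave 2 calls, both higher, and the medulla 87, of which 68 were higher and 19 lower. The regions differ in how much was measured, 2 segments per section in cortex and 1 in medulla, and the part of this in the counts was not tested.

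The lists of the regions overlapped on the side of the rises. Of the 21 cortical probes 19 were also called higher in the medulla, against 1.23% of all probes. These 19 were 90.5% of the cortical and 7.63% of the medullary list. The rest of the 21 had positive changes in the medulla. In all 21 the day 7 segments of both regions were above the controls, against 7.14% of all probes in cortex and 16.1% in medulla. The cortical segments chose these probes, so the cortical part is a description. The cortical probes had a median log2 fold change of 1.67 in cortex and 2.13 in medulla, and their median level went from 24.2 to 84.6 CPM.

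The cortical segments had no part in the medullary calls, although they came from the same sections. Of the 249 probes called higher in the medulla, 248 had a positive log2 fold change in the cortex and 107 had one above 1. In 211 of them (84.7%) all 4 cortical day 7 segments were above all 4 cortical controls, against 7.14% of all probes. Of the 98 probes called lower in the medulla, 96 had a negative log2 fold change in the cortex and 29 one below -1, and in 71 (72.4%) the 4 cortical day 7 segments were below the 4 controls, against 6.84% of all probes. Over the rises the median log2 fold change was 1.52 in the medulla, where they were chosen, and 0.91 in the cortex, and over the falls it was -1.53 and -0.81.

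The medullary falls moved with the choice of sections. Among all probes, 16.1% were higher in both medullary day 7 segments than in both controls and 28.6% were lower, so that non-overlap of 2 and 2 segments is common. Of the 98 medullary falls, 26 were also called over all regions and 72 were not. With day 7 section 1 left out 4 falls were called in the medulla, and with control section 2 left out 184 were.

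In the sections of the other 5 groups, which did not enter the contrast, few of the called probes differed between the regions by the test. There, by edgeR with the section in the model, 31 probes were higher in medullary than in cortical tubules (0.154%) and 144 were lower (0.714%). The risen day 7 probes had a median log2 difference of 0.29 toward the medulla, against 0.07 over all probes, and 137 of the 171 (80.1%) were on that side, against 70.9% of all probes, with 1 called. The fallen probes had a median of -0.33, toward the cortex, with 33 of 40 (82.5%) on that side, against 29.1% of all probes, and 1 called.

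Macrophage segments of the same regions, which the tubule calls did not use, changed alike for many of these probes. There, 319 of 18541 probes were higher on day 7 (1.72%) and 336 were lower (1.81%). Of the 171 risen tubule probes 79 (46.2%) were called higher and 0 lower in macrophage segments; the median log2 fold change was 1.37, and 167 had a positive value. Of the 40 fallen probes 26 (65.0%) were called lower and 0 higher, with a median of -1.38 and a negative value for all 40. RTS0079650 rose there as well, by a log2 fold change of 2.35 (edgeR adjusted p = 0.000228), whereas RTS0065857 had 0.86 (edgeR adjusted p = 0.339). RTS0067322 and RTS0065766 fell, with log2 fold changes of -1.07 (edgeR adjusted p = 0.0082) and -1.10 (edgeR adjusted p = 0.0235). The macrophage segments of controls held 16693 to 146173 counts and those of day 7 328462 to 771296, and the part of this depth gap, and of RNA from neighbouring cells within a segment, in these values was not tested. Without control section 1 the macrophage segments gave 189 calls, of which 79 were higher and 110 lower.

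**Figure D4:**
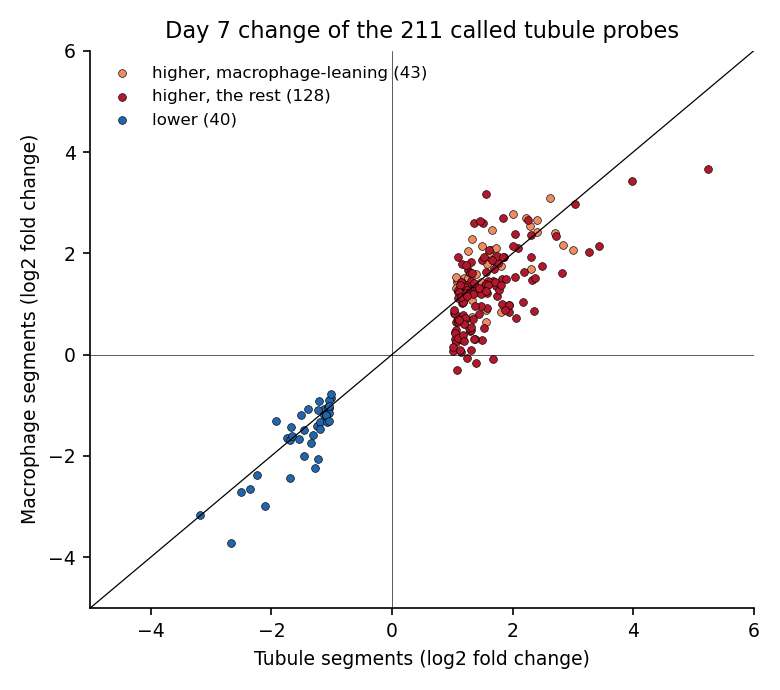
Log2 fold change of vehicle day 7 over control in tubule segments (horizontal) and in macrophage segments (vertical) for the 211 probes called in tubules, with the line of equal change; paler points are risen probes that were higher in macrophage than in tubule segments of the other 5 groups. Of the risen probes 167 of 171 lie above 0 in macrophage segments, and all 40 fallen probes lie below 0.

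Part of the risen probes were more abundant in macrophage than in tubule segments. In the sections of the other 5 groups, 345 probes were higher in macrophage segments (1.71%) and 101 were higher in tubule segments (0.501%), by edgeR with the section in the model. Of the 171 risen probes 43 (25.1%) were among the former and 0 among the latter, and of the 40 fallen probes 3 (7.5%) were among the latter and 0 among the former. Over the risen probes the median log2 difference of macrophage from tubule segments was 0.43, over the fallen ones -0.52, and over all probes -0.04. The 43 probes that leaned to macrophages rose by a median log2 fold change of 1.56 in tubule segments and the other 128 by 1.39. More of them were called higher in macrophage segments on day 7, 27 of 43 against 52 of 128. Their median difference between the regions was smaller, 0.21 more change in the medulla, against 0.70 for the 128; neither contrast of the 43 with the 128 was tested. Since no probe is paired with a gene, the levels of macrophage markers in tubule segments could not be read. The part of macrophage RNA in the rise of these 43 probes was not tested.

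Levels of the called probes in the other groups are set side by side, without a test, since those groups share the control and day 7 sums that chose the probes. The median level of the 171 risen probes was 24.6 and 24.7 CPM in the control sections, 42.7 and 46.5 CPM on day 1 with vehicle, 78.6 and 72.9 CPM on day 7, and 92.3 and 114 CPM on day 14. With the SYK inhibitor entospletinib it was 36.5 and 50.6 CPM on day 1, 29.0 and 28.6 CPM on day 7, and 26.9 and 31.6 CPM on day 14. The medians of the vehicle sections went up from day 1 to day 14, and those of entospletinib on days 7 and 14 lay above the control medians and below those of day 7 with vehicle. On day 1 with vehicle both sections were above both controls for 133 of the 171 (77.8%), against 15.9% of all probes, and on day 14 for all 171, against 19.3%. Both day 14 sections were above both day 7 sections for 108 (63.2%), against 15.0% of all probes, and below both for 16 (9.36%), against 38.0%. With entospletinib both sections were above both controls for 72 of the 171 (42.1%) on day 7, against 19.6% of all probes, and for 50 (29.2%) on day 14, against 8.48%.

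The fallen probes ran the other way. Their median level was 189 and 133 CPM in controls, 95.3 and 79.5 CPM on day 1, 55.3 and 66.1 CPM on day 7, and 53.1 and 48.3 CPM on day 14 with vehicle. With entospletinib it was 108 and 90.7 CPM on day 1, 110 and 116 CPM on day 7, and 132 and 129 CPM on day 14. The control sections differ more from each other for the fallen than for the risen probes. With vehicle, the day 14 medians lay at or below those of day 7. Both day 14 sections were below both day 7 sections for 18 of the 40 (45.0%), against 38.0% of all probes. They were above both for 2 (5.0%), against 15.0% of all probes. On day 1 with vehicle both sections were below both controls for 33 of the 40 (82.5%), against 14.3% of all probes. With entospletinib this held for 23 (57.5%) on day 7, against 6.54%, and for 14 (35.0%) on day 14, against 7.07%.

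**Figure D5:**
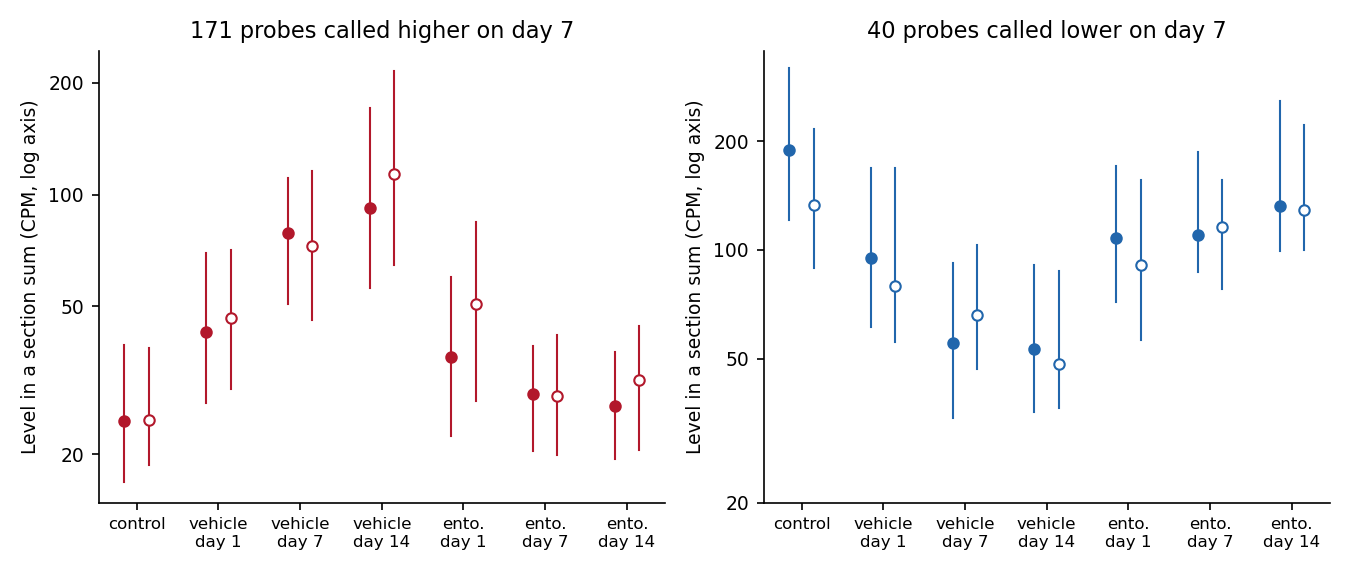
Level in each of the 14 section sums of tubule segments (CPM, log axis) of the 171 probes called higher (left) and the 40 called lower (right) on day 7, with the median as a point, the range from the first to the third quartile over probes as a line, filled points for section 1, and open points for section 2; ento. is entospletinib. The risen probes have medians of 24.6 and 24.7 CPM in controls and of 78.6 and 72.9 CPM on day 7 with vehicle.

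The named probes followed these courses with differences among them. RTS0079650 was at 28 and 20.5 CPM on day 1, not far from its control levels, and at 143 and 135 CPM on day 14, whereas RTS0065857 was already at 31.7 and 31.2 CPM on day 1 and held 69.3 and 71.8 CPM on day 14, as on day 7. With entospletinib on day 7, RTS0079650 was at 21.3 and 21.1 CPM and RTS0065857 at 16.9 and 22.7 CPM, both far below their vehicle levels. RTS0067322 went from 571 and 546 CPM on day 1 to 319 and 288 CPM on day 14 with vehicle, and was at 422 and 476 CPM with entospletinib on day 7. RTS0065766 was at 126 and 105 CPM on day 1 and at 66.1 and 65.8 CPM on day 14 with vehicle, and at 93.4 and 109 CPM with entospletinib on day 7, above its day 7 vehicle levels in both sections.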

How the data were processed

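The authors deposited whole counts of unique molecular identifiers per probe for each segment, which the GeoMx NGS Pipeline had produced and which were neither normalized nor background-corrected. All values were checked to be whole. Gene names, negative probes, and probe sequences are not paired with the identifiers in the sources used here, so marker and pathway lists were not used. The outlier samples that the study excluded are not named in its text, so no segment was left out.

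Counts were summed over the segments of a section, making the section the replicate (n = 2 per group). Probes were filtered with edgeR's filterByExpr (minimum count 10, minimum total 15), and scaled by the upper quartile. Tests were edgeR's robust quasi-likelihood tests (edgeR 4.0.16, R 4.3.3) and p-values were adjusted by Benjamini-Hochberg. One estimate of the spread was shared by the 14 sums of all 7 groups. The SE is the absolute log2 fold change over the square root of F. Alternatives used DESeq2 (version 1.42.0), limma (version 3.58.1), TMM, other filters, thinning, and leaving out sections. The test was tried on simulated data. Named probes were the 2 risen and 2 fallen with the smallest adjusted p and the same sign in both regions. The comparisons, lists, and rules were chosen with earlier results of these data known. Each of these tubule segments held at least 2226395 counts.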

Additional observations from a re-analysis of the deposited data

Results flagged for a closer look

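One result stood apart. Among the 6 day 7 tubule segments, the level of RTS0079650 in the medullary segment of section 2, 186 CPM, lay further from the nearest other segment than the critical value of Dixon's test allows. Of 14 groups of 6 segments tested, covering the 4 named probes, total counts, saturation, and the share of the most abundant probe, this was the only flag, and chance gives about 1 in 20. The median of the 6 segments was 110 CPM, and the lowest was 87.3 CPM.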

How the results depend on the processing

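Over all regions, the count of 211 calls was within 1.5 times under TMM (192), a stricter filter (256), thinning, and the 4 sums alone (269). So it was with limma-voom on segments (212, of which 125 were shared with the 211, with 124 higher and 88 lower). Without a filter the count was 211 by construction, since all probes had passed the filter. It was 319 with DESeq2 on the sums, 467 with DESeq2 on segments as replicates (248 higher, 219 lower), and 102 when each segment weighed the same in limma. The study also used DESeq2 with regions as replicates. It further left out samples, merged probes into genes, and dropped genes of low detection, which was not done here. Leaving out each section gave 63 to 367. In the cortex, 21 calls became 12 with TMM, 172 with DESeq2, and 2 to 13 without a section. In the medulla, 347 became 594 with DESeq2 and 87 to 308 without a section. In macrophage segments, 655 became 189 to 402 without a section. The difference between regions gave 0 calls, 1 with TMM, and 0 to 9 without a section. Where a section was left out, its lone partner was taken to vary as the rest do. The cause of these differences was not tested. No direction of a named probe reversed; RTS0067322 also lost its call with the 4 sums alone (-1.39, edgeR adjusted p = 0.156), and so did RTS0065766 (-1.23, edgeR adjusted p = 0.055).

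With the label prefix as a replicate block, the counts were 281 over all regions, 98 in the cortex, 478 in the medulla, and 751 in macrophage segments. Whether the prefix numbers pair the sections is not stated, and they were not taken to: the differences of section 1 from section 2 correlated over probes with r = -0.56 between control and day 7 but above 0.1 in 15 of 21 pairs of groups, up to 0.73. With crossed numbers in the block, chosen after seeing the data, as was leaving out the medullary segment, the count over all regions was 258. Thinning all sums to the lowest total moved the count over all regions to 225, whereas leaving out single sections moved it by over 1.5 times.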
